A study of Mus musculus with 12 samples.

Results

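The SOCS family consists of 8 genes, Cish and Socs1 to Socs7, whose transcripts were followed here in bone marrow-derived basophils (BMBAs) raised with either of 2 cytokines and sorted into immature and mature cells. The members were found by their gene symbols, and all 8 were present among the 31301 genes of the count table. All 8 also passed the filter on low counts, which left 10861 genes for testing. Bone marrow cells of C57BL/6J wild-type mice were cultured for 7 days with IL-3 at 0.3 ng/mL or with TSLP at 1 µg/mL (a separate label field writes the TSLP unit as mg/mL). Immature BMBAs (FcεRIα high, CD49b low, the pre-basophil phenotype) and mature BMBAs (FcεRIα low, CD49b high) were then sorted from each culture. The 4 groups, named here by cytokine and stage (IL-3 immature, TSLP mature and so on), had 3 libraries each, made from polyadenylated RNA and read on an Ion Proton sequencer. Per the study's text the 3 libraries of a group came from separate cultures, so p-values measure the spread between cultures. Whether those came from separate mice is not given in the sources used here. No uncultured basophils and no cultures without cytokine were among the samples. The cytokine was fixed from the start of each culture, so the comparisons are between cells that developed with IL-3 and cells that developed with TSLP.

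SOCS proteins are feedback inhibitors of cytokine receptors. Receptors for IL-3 and TSLP signal through Janus kinases (JAKs) and STAT5, the activated STAT switches on SOCS genes, and the SOCS proteins then bind phosphorylated receptors or JAKs through an SH2 domain and attach an E3 ubiquitin ligase through the SOCS box. Because the genes are direct targets of the pathway that they restrain, their transcripts are often read as a record of recent cytokine signalling, and Cish is the classical target of STAT5.

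The promoters of 4 members, Cish, Socs1, Socs3 and Socs4, were found in the RefSeq promoter table (build GRCm38.p6, 250 bases before to 50 bases after the annotated start). Stretches from the first 3 are printed because these genes had the highest levels per length in mature cells and because they differ in the short motifs that they hold. Both strands were searched for TTCNNNGAA, the form of site that STAT dimers recognise, and for GAAANNGAA, a form recognised by interferon regulatory factors. Capitals mark the matches, and every sequence is written 5′ to 3′ on the strand of its gene.
Cish, chr9:107296559-107296683, plus strand, positions -100 to 25 from the start: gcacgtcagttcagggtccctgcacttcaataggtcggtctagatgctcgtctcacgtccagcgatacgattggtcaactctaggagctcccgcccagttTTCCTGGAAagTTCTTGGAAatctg
Socs3, chr11:117969467-117969566, minus strand, positions -200 to -101 from the start: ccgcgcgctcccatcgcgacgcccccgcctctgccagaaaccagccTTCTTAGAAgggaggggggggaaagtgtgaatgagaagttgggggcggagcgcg
Socs1, chr16:10785567-10785666, minus strand, positions -130 to -31 from the start: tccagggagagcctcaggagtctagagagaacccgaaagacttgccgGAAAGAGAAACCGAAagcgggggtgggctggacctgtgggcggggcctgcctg
Cish held 2 matches to TTCNNNGAA, at 1 to 9 and 12 to 20 bases after the annotated start, and none to GAAANNGAA. Socs3 held 1 match to TTCNNNGAA, at 154 to 146 bases before the start (positions -154 to -146), and none to the other motif. Socs1 held none to TTCNNNGAA and 2 overlapping matches to GAAANNGAA, at -83 to -75 and -77 to -69. The Socs4 promoter (chr14:47276670-47276969, plus strand) held neither. Of 32851 promoters of the same length, 8.3% held TTCNNNGAA at least once and 0.457% at least 2 times, while 8.56% held GAAANNGAA at least once and 0.624% at least 2 times. The gene spans given below come from another annotation, GENCODE. For Cish and Socs3 those spans begin before the RefSeq starts used here, so the printed stretches of these 2 genes lie inside them. A match is a description of the letters and not of binding.

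Library totals ran from 1720065 counts (IL-3 immature replicate 1) to 3685285 (TSLP mature replicate 2), and the family took between 236 and 1984 of them per library. Values below are CPM (read counts relative to the library total) scaled by TMM, a factor that balances libraries on genes of average change. Ribosomal Rn45s took 7.43 to 20.2% of counts, with its highest shares, 17.5 to 20.2%, in TSLP immature libraries. None of the 9 basophil markers (Mcpt8, Prss34, Cd200r3 and others) was at 0 throughout a group. The same held for the neutrophil, myeloid progenitor, and monocyte and macrophage markers listed below, so presence alone does not tell these cell types apart. The basophil sums with IL-3 were 41170 to 44510 CPM in immature and 10790 to 13640 in mature libraries. With TSLP they were 28430 to 31390 and 8206 to 11530 CPM. Mcpt8 and Prss34, the largest parts of the immature sums, were lower in mature libraries of both cultures, as were Cpa3 and Ms4a2. Cd200r3, Itga2 and Gata2 were higher there, and Il3ra overlapped between the stages. Fcer1a, the gene of a sorting marker, was at 1584 to 1614 CPM in immature and 865.4 to 1267 in mature libraries with IL-3. With TSLP its stages overlapped, at 1222 to 1530 and 870.7 to 1779 CPM. The 1779 CPM was in TSLP mature replicate 1, where Itga2 was at 96.86 CPM (199.1 and 208.5 in its other replicates). TSLP mature replicate 1 stood apart from the other libraries of its group, with a chi-square per degree of freedom of 40.8 and 51.4 against them where other replicate pairs gave 2.08 to 13.1. Its 8 neutrophil markers summed to 827.7 CPM (50.77 to 59.86 in its other replicates) and its 6 B cell markers to 131.7 CPM (14.75 to 17.54), so results that rest on this library are given below without it as well.

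The 8 transcripts fell into 2 kinds. Cish, Socs1, Socs2, Socs3 and Socs5 differed with stage, cytokine or both, while Socs4, Socs6 and Socs7 passed edgeR's test in none of the 5 comparisons (at an unadjusted p under 0.05, Socs4 in 1 of them, and by DESeq2 none). The largest of these differences was that of Socs3 in IL-3 cultures, at 46.6-fold between mature and immature cells.

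**Figure D1:**
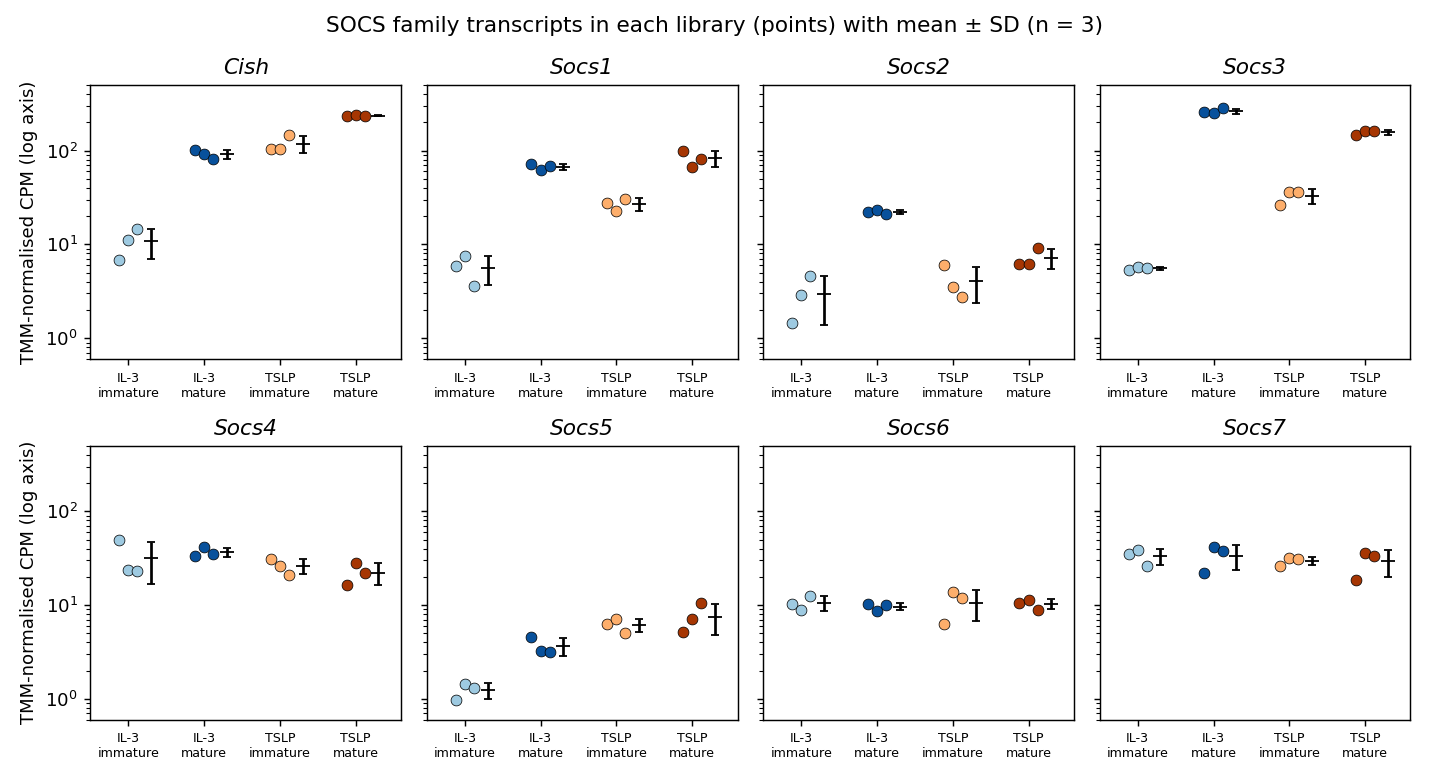
TMM-normalised CPM of each SOCS family gene (log axis) in the 3 libraries of each group (points), with mean ± SD beside them. Cish, Socs1 and Socs3 were lowest in all 3 IL-3 immature libraries, Socs3 was highest in IL-3 mature (248 to 281 CPM), Cish was highest in TSLP mature (233 to 238 CPM), and Socs4, Socs6 and Socs7 passed no test between groups.

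Cish (ENSMUSG00000032578.7, chr9:107296026-107302784, plus strand, GRCm38) encodes CIS, which binds phosphorylated receptor tails and competes with STAT5 for its docking sites. In IL-3 immature libraries Cish was at 6.79, 11.1 and 14.6 CPM, and in IL-3 mature libraries at 100.8, 92.2 and 81.6 CPM. In TSLP immature libraries it was at 104, 104 and 147 CPM, and in TSLP mature libraries at 233, 238 and 235 CPM. The 4 groups did not overlap, and immature cells raised with TSLP held more Cish than mature cells raised with IL-3, a pair that was not among the comparisons tested. By the counts pooled over libraries, Cish was 8.16-fold higher in mature than in immature cells of IL-3 cultures (95% exact interval 6.6 to 10.2, as for all fold intervals here covering counting error only) and 1.99-fold higher in mature cells of TSLP cultures (1.85 to 2.14). TSLP immature cells exceeded IL-3 immature cells 10.5-fold (8.49 to 13) and TSLP mature cells exceeded IL-3 mature cells 2.55-fold (2.34 to 2.77). All 4 differences passed edgeR's quasi-likelihood test with Benjamini-Hochberg adjustment over all genes tested, with log2 fold changes of -3.04 ± 0.24 (SE) for immature against mature in IL-3 cultures (adjusted p = 4.86e-08), -0.99 ± 0.20 in TSLP cultures (adjusted p = 0.00191), 3.41 ± 0.24 for TSLP against IL-3 in immature cells (adjusted p = 1.77e-07) and 1.36 ± 0.21 in mature cells (adjusted p = 0.000509). Of the exon bases of Cish, 11.5% overlap the opposite-strand genes Gm17040 and Gm17041, whose reads could not be told apart from those of Cish unless strand was used in counting, which is not given in the sources used here.

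Socs3 (ENSMUSG00000053113.3, chr11:117966079-117970047, minus strand) encodes an inhibitor that binds gp130-type receptors and blocks JAKs through a kinase inhibitory region. In IL-3 immature libraries it was at 5.34, 5.71 and 5.63 CPM and in IL-3 mature libraries at 257.5, 248 and 281 CPM. In TSLP immature libraries it was at 26.2, 36.3 and 36.1 CPM and in TSLP mature libraries at 146.5, 161 and 163 CPM. No groups overlapped, and the order was IL-3 immature, TSLP immature, TSLP mature and IL-3 mature, so that the highest and the lowest levels were both found in IL-3 cultures. The stage difference was 46.6-fold with IL-3 (35 to 63.5) and 4.82-fold with TSLP (4.25 to 5.49), log2 fold changes of -5.54 ± 0.21 and -2.26 ± 0.17 for immature against mature (edgeR, adjusted p = 7.31e-11 and 1.85e-07). TSLP against IL-3 gave a higher level in immature cells, 5.8-fold (4.26 to 8.04, log2 fold change 2.54 ± 0.21, edgeR, adjusted p = 1.16e-06), and a lower level in mature cells, 1.67-fold (1.56 to 1.78, log2 fold change -0.74 ± 0.16, edgeR, adjusted p = 0.00428).

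Socs1 (ENSMUSG00000038037.5, chr16:10782240-10785536, minus strand) encodes the other family member with a kinase inhibitory region, known as a brake on interferon and common gamma chain cytokine signals. With IL-3 it was at 5.82, 7.43 and 3.64 CPM in immature and 71.2, 61.6 and 69.0 CPM in mature libraries. With TSLP it was at 27.7, 22.7 and 30.6 CPM in immature and 99.3, 66.7 and 81.2 CPM in mature libraries. The 2 mature groups overlapped and each lay above both immature groups, of which the TSLP group was the higher. Mature exceeded immature cells 11.8-fold with IL-3 (8.77 to 16.1, log2 fold change -3.56 ± 0.26 for immature against mature, edgeR, adjusted p = 1.93e-08) and 3.04-fold with TSLP (2.63 to 3.52, log2 fold change -1.61 ± 0.21, edgeR, adjusted p = 3.87e-05). Between cytokines, the immature groups differed 4.76-fold (3.49 to 6.62, log2 fold change 2.24 ± 0.26, edgeR, adjusted p = 5.2e-05). The difference between the mature groups did not pass (log2 fold change 0.29, 95% interval -0.13 to 0.72, edgeR, adjusted p = 0.311).

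Socs2 (ENSMUSG00000020027.18, chr10:95385362-95417180, minus strand), best known as the inhibitor of growth hormone signalling and a STAT5 target, was highest in IL-3 mature cells. It was at 22.1, 23.3 and 21.2 CPM in IL-3 mature libraries, against 1.46, 2.86 and 4.64 CPM in IL-3 immature libraries. With TSLP it was at 6.01, 3.52 and 2.72 CPM in immature and 6.21, 6.24 and 9.23 CPM in mature libraries. The IL-3 mature libraries lay above the other 9, the 2 immature groups overlapped, and the TSLP mature group lay just above the TSLP immature group. IL-3 mature exceeded IL-3 immature cells 7.08-fold (4.7 to 11, log2 fold change -2.82 ± 0.35 for immature against mature, edgeR, adjusted p = 6.53e-06) and TSLP mature cells 3.11-fold (2.36 to 4.14, log2 fold change -1.62 ± 0.30 for TSLP against IL-3, edgeR, adjusted p = 0.00188). The stage difference in TSLP cultures did not pass (log2 fold change -0.79, 95% interval -1.54 to -0.03, edgeR, adjusted p = 0.119), nor did that between the immature groups (0.41, interval -0.46 to 1.29, adjusted p = 0.555). These values rest on 3 to 64 counts per library, and 4.53% of the 50-base stretches of Socs2 transcripts also occur in transcripts of other genes, among them Gm9847.

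Socs5 (ENSMUSG00000037104.9, chr17:87107679-87137839, plus strand), linked to inhibition of EGF receptor and IL-4 receptor signals, had 2 to 34 counts per library. With IL-3 it was at 0.970, 1.43 and 1.32 CPM in immature and 4.63, 3.28 and 3.16 CPM in mature libraries. With TSLP it was at 6.31, 7.03 and 5.11 CPM in immature and 5.13, 7.09 and 10.5 CPM in mature libraries. Both TSLP groups lay above both IL-3 groups, and the TSLP groups overlapped each other. In immature cells TSLP exceeded IL-3 by 4.78-fold (2.47 to 10.1, log2 fold change 2.23 ± 0.43, edgeR, adjusted p = 0.00337), and in IL-3 cultures mature exceeded immature cells by 2.91-fold (1.41 to 6.46, log2 fold change -1.51 ± 0.47 for immature against mature, edgeR, adjusted p = 0.0145). In mature cells the cytokine difference of 1.99-fold (1.29 to 3.17, log2 fold change 1.01 ± 0.36, edgeR, adjusted p = 0.0499) was at the threshold and was lost in most alternative fits. The stage difference in IL-3 cultures was lost when IL-3 mature replicate 1 was left out (log2 fold change -1.32, edgeR, adjusted p = 0.0621).

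Socs4, Socs6 and Socs7 were the members with no call. Socs4 (ENSMUSG00000048379.9, chr14:47276931-47296102, plus strand), a relative of Socs5 that also acts on the EGF receptor, had means of 31.8 ± 14.9 and 36.5 ± 4.12 CPM (SD, n = 3) in immature and mature cells of IL-3 cultures and of 26.0 ± 4.78 and 22.2 ± 5.82 CPM in those of TSLP cultures. Socs6 (ENSMUSG00000056153.15, chr18:88665224-88927481, minus strand), a binder of the receptor KIT, had means between 9.67 CPM in IL-3 mature and 10.6 CPM in TSLP immature cells. Socs7 (ENSMUSG00000038485.5, chr11:97362551-97398542, plus strand), a binder of the adaptor NCK, had means between 29.3 CPM in TSLP mature and 33.7 CPM in IL-3 mature cells. Of the pairs of groups compared, only those of Socs4 in mature cells did not overlap, at 33.5 to 41.2 CPM with IL-3 and 16.5 to 28.1 CPM with TSLP (log2 fold change -0.71, 95% interval -1.31 to -0.12, edgeR, adjusted p = 0.0748). The intervals of the stage difference in IL-3 cultures were -0.82 to 0.36 for Socs4, -0.49 to 0.74 for Socs6 and -0.60 to 0.54 for Socs7 on the log2 scale, so differences up to those bounds were not excluded. Of the stretches of Socs6 transcripts, 6.14% recur in other transcripts (Gm9449 and Gm13188).

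Counted over the family, IL-3 mature cells exceeded IL-3 immature cells in 5 of 8 members (Cish, Socs1, Socs2, Socs3 and Socs5) and fell below them in none, where 24.1% of all genes tested were higher in IL-3 mature and 22.1% higher in IL-3 immature cells. The members' median log2 fold change, immature against mature, was -2.17 beside -0.06 over all genes tested. TSLP mature cells exceeded TSLP immature cells in 3 of 8 members (Cish, Socs1 and Socs3) and fell below them in none, where 12.9% of all genes were higher in TSLP mature and 12.2% higher in TSLP immature cells, and the medians were -0.54 and -0.03. TSLP immature cells exceeded IL-3 immature cells in 4 of 8 members (Cish, Socs1, Socs3 and Socs5) and fell below them in none, where 7.38% of all genes were higher with TSLP and 5.9% higher with IL-3, and the medians were 1.32 and 0.04. In mature cells the members divided, with Cish and Socs5 higher with TSLP and Socs2 and Socs3 higher with IL-3, where 12.4% of all genes were higher with TSLP and 11.9% higher with IL-3, and the medians were -0.06 and 0.09. Each group entered 2 of these comparisons, so the counts share libraries. In bulk RNA, fewer cells that express a gene and less of its RNA per cell cannot be told apart.

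**Figure D2:**
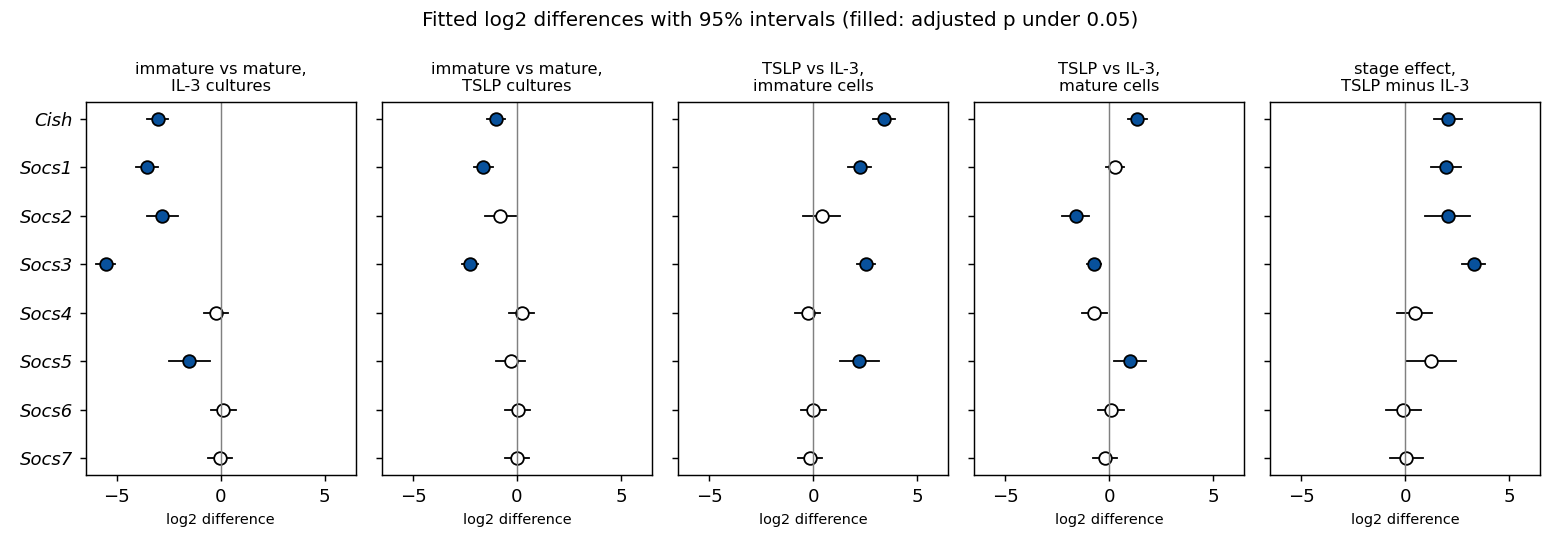
Fitted log2 differences (points) with 95% intervals (lines) for the 8 genes in the 4 pairwise comparisons and for the difference between the stage effects (right), with filled points where the edgeR adjusted p was under 0.05. The stage effects of Cish, Socs1, Socs2 and Socs3 were all larger in IL-3 than in TSLP cultures, and Socs3 had the largest difference (3.29 on the log2 scale).

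The stage effect itself differed between the cultures for 4 of 8 members, where 4.19% of all genes passed this test in either direction and 2.15% in the direction of these 4, which is a positive TSLP minus IL-3 difference of the immature-against-mature log2 fold change. For Socs3 the difference was 3.29 ± 0.27 (SE, edgeR, adjusted p = 4.49e-06), for Cish 2.05 ± 0.31 (adjusted p = 0.00166), for Socs1 1.95 ± 0.33 (adjusted p = 0.00329) and for Socs2 2.03 ± 0.51 (adjusted p = 0.0343). In each case the gap between immature and mature cells was wider with IL-3. For Cish, Socs1 and Socs3 the low end of that gap was the IL-3 immature group, at 3.64 to 14.6 CPM, and the corresponding TSLP immature libraries were at 22.7 to 147 CPM. For Socs2 the high end, the IL-3 mature group, set the cultures apart. For Socs3 the high end differed as well, at 248 to 281 CPM in IL-3 mature and 146.5 to 163 in TSLP mature libraries (-0.74 for TSLP against IL-3, edgeR, adjusted p = 0.00428). For Cish the mature groups differed the other way, higher with TSLP (1.36, edgeR, adjusted p = 0.000509). Socs5 did not pass (1.22, 95% interval 0.01 to 2.44, edgeR, adjusted p = 0.267). The call for Socs2 was lost in 8 of the 12 fits that left out 1 library (edgeR, adjusted p = 0.0569 to 0.146), those without IL-3 immature replicate 1 or 2, any IL-3 mature replicate, TSLP immature replicate 1 or 2, or TSLP mature replicate 2.

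Leaving out TSLP mature replicate 1 changed no call among the 8 members. Without it the stage effect in TSLP cultures was -0.91 for Cish, -1.35 for Socs1 and -2.21 for Socs3 on the log2 scale (edgeR, adjusted p = 0.00183, 5.1e-05 and 5.43e-08). The TSLP against IL-3 difference in mature cells was 1.29 for Cish, -1.61 for Socs2, -0.78 for Socs3 and 1.14 for Socs5 (edgeR, adjusted p = 0.000246, 0.00175, 0.00191 and 0.0258). The markers of other cells moved with stage as well. The 6 monocyte and macrophage markers summed with IL-3 to 83.76 to 110 CPM in immature and 545.2 to 671.1 in mature libraries, and with TSLP to 191.5 to 232.2 and 470.1 to 721.2. Ccr2, Ly6c2 and Adgre1 made up most of the sum. C1qa was at 0 to 12.4, C1qb at 0.902 to 51.0 and Csf1r at 4.64 to 40.2 CPM, each highest in TSLP mature replicate 1. The 5 myeloid progenitor markers (Mpo, Elane, Prtn3, Ctsg and Cd34) ran the other way, at 2560 to 2852, 131.7 to 194.1, 1317 to 1335 and 68.37 to 172.7 CPM in the same order of groups. The 8 neutrophil markers were at 165.2 to 194.5, 303.4 to 426.7, 110.3 to 165.4 and 50.77 to 827.7 CPM, the 4 eosinophil markers at 27.42 to 36.39, 62.29 to 86.91, 16.02 to 33.03 and 60.43 to 79.59 CPM, and the 6 B cell markers at 5.999 to 6.953, 2.137 to 2.55, 26.18 to 31.66 and 14.75 to 131.7 CPM. The 5 mast cell markers summed to 0 to 8.905 CPM and the 4 markers of T and NK cells to 0 to 2.698 CPM. The part of these markers in the SOCS results was not tested.

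The composition of the family's counts, which are not corrected for length, shifted from one group to the next. In IL-3 immature cells Socs4 and Socs7, the members with the longest transcripts, supplied most of the counts, 30.5% ± 10.7 and 32.5% ± 5.39 (SD, n = 3), while Socs3 supplied 5.53% ± 0.785. In IL-3 mature cells Socs3 supplied 49.8% ± 2.24 of the counts and Cish 17.4% ± 2.07. In TSLP cultures Cish supplied the largest share at both stages, with 46.2% ± 4.77 of the family's counts in immature and 42.7% ± 0.889 in mature cells, and Socs3 supplied 12.9% ± 1.81 and 28.4% ± 0.896. The summed level of the 8 genes was 91.0 to 114.5 CPM in IL-3 immature, 233.6 to 284.9 in TSLP immature, 519.5 to 538.5 in IL-3 mature and 535.3 to 563.7 in TSLP mature libraries. The 2 mature groups thus came close to each other in the sum, with the TSLP range starting inside the IL-3 range.

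**Figure D3:**
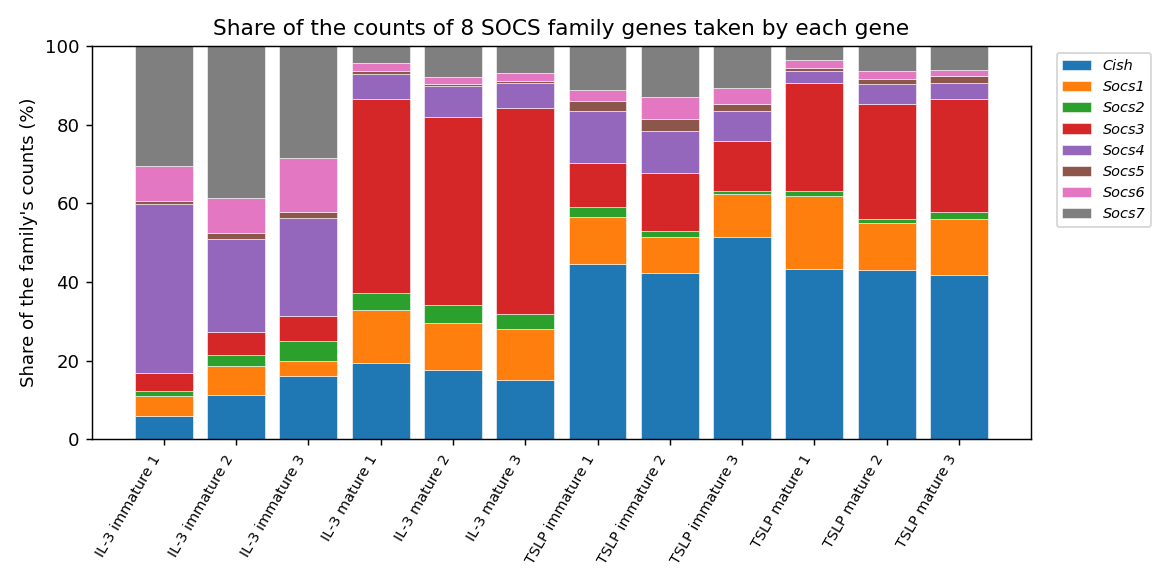
Share of the counts of the 8 SOCS family genes (percent, stacked bars) in each of the 12 libraries. Socs4 and Socs7 fill most of the IL-3 immature bars, Socs3 takes 47.8 to 52.2% of the IL-3 mature bars, and Cish takes 41.7 to 51.5% of all 6 TSLP bars.

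Ratios of 2 members within a library do not depend on library scaling. The ratio of Cish to Socs2 counts was 4.67, 3.9 and 3.14 in IL-3 immature and 4.56, 3.95 and 3.85 in IL-3 mature libraries, although both genes differed more than 7-fold between those groups. It was 17.4, 29.4 and 53.9 in TSLP immature and 37.5, 38.1 and 25.5 in TSLP mature libraries. The 6 IL-3 libraries (3.14 to 4.67) and the 6 TSLP libraries (17.4 to 53.9) therefore did not overlap at either stage. The ratio of Cish to Socs3 counts moved with both factors, at 1.27 to 2.59 in immature and 0.291 to 0.391 in mature libraries with IL-3, and at 2.85 to 4.07 and 1.44 to 1.59 with TSLP. These ratios were chosen after the values had been seen and are given with no test.

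The shares and ratios above are of counts, which grow with transcript length. The level of one member against another was read only as CPM per kilobase of the longest coding transcript (2222 bases for Socs2 to 7015 bases for Socs7, with 2850 for Cish and 6877 for Socs4). On this scale Socs3 led in IL-3 mature cells at 103 CPM per kilobase, followed by Cish at 32.1 and Socs1 at 23.1. Cish led in TSLP mature cells at 82.5, followed by Socs3 at 61.4 and Socs1 at 28.3, and in TSLP immature cells at 41.5, followed by Socs3 at 12.9 and Socs1 at 9.28. In IL-3 immature cells no member stood out, with Socs7 at 4.71, Socs4 at 4.62, Cish at 3.8 and Socs3 at 2.18 CPM per kilobase. Socs5 was the lowest in all 4 groups, at 0.267 to 1.63 CPM per kilobase.

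The receptors that the SOCS proteins act on were largely higher in mature cells as well. Beside these and the following lists, 24.1% of all genes tested were higher in mature and 22.1% in immature cells of IL-3 cultures. The shares were 12.9% and 12.2% in TSLP cultures. In immature cells 7.38% were higher with TSLP and 5.9% with IL-3, and in mature cells 12.4% and 11.9%. The stage effect differed between the cultures for 4.19% of all genes, and for 2.15% in the positive direction. Of 14 cytokine receptor genes, 11 were higher in mature cells of IL-3 cultures and none lower (median log2 fold change -1.35 for immature against mature, beside -0.06 over all genes), with Il7r, the receptor chain that pairs with the TSLP receptor, rising from 8.15 to 251.3 CPM (-4.96, edgeR, adjusted p = 6.62e-10), and with Csf2rb, the shared beta chain of the IL-3 receptor, rising from 1758 to 5971 CPM (-1.76, adjusted p = 2.42e-06). In TSLP cultures 9 were higher in mature cells and none lower (median -0.75 beside -0.03). There Il7r was at 33.96 and 84.46 CPM (-1.31, edgeR, adjusted p = 0.000211) and Csf2rb2 at 731.3 and 1838 CPM (-1.33, adjusted p = 8.36e-05). Between the cytokines in immature cells 4 were higher with TSLP and 1 with IL-3 (median 0.35 beside 0.04). The 1 was Il3ra, the IL-3 binding chain, at 81.3 CPM with TSLP and 222.8 CPM with IL-3 (-1.45, edgeR, adjusted p = 0.00127). In mature cells 1 was higher with TSLP and 4 with IL-3 (median -0.04 beside 0.09), among them Il7r (-1.57, edgeR, adjusted p = 0.000138). Il7r thus had the same order of groups as Socs3, and its stage effect also differed between the cultures (3.65, edgeR, adjusted p = 8.35e-06), as did those of Il4ra and Ifngr2. Crlf2, the TSLP-binding chain, ranged in its group means from 73.0 CPM in IL-3 immature to 97.5 CPM in TSLP mature cells and passed no test. The fit without TSLP mature replicate 1 called more of all genes in each of the 5 comparisons. These totals stand beside the list counts without it, here and below. It called 5676 of 11020 genes for stage with IL-3 (5020 of 10861 with all libraries) and 3456 for stage with TSLP (2731). Between the cytokines it called 2243 in immature (1443) and 2968 in mature cells (2634). For the difference between stage effects it called 723 (455). Without this library, the stage effect of 5 receptors rather than 3 differed between the cultures. In TSLP cultures 7 rather than 9 were then higher in mature cells. Between the cytokines, 2 rather than 1 were higher with IL-3 in immature cells, and in mature cells none was higher with TSLP and 5 with IL-3.

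The kinases and transcription factors of the pathway were examined next. Of 11 JAK and STAT genes, 6 were higher in mature cells of IL-3 cultures and none lower (median -0.58 beside -0.06), led by Stat6 (-1.36, edgeR, adjusted p = 7.98e-06), Stat4 (-1.29, adjusted p = 0.000128) and Jak2 (-1.16, adjusted p = 0.000488). In TSLP cultures 4 were higher in mature cells (median -0.54 beside -0.03), Stat6, Stat5b, Jak1 and Stat5a. None of the 11 passed between the cytokines in immature cells by edgeR or by DESeq2 (median 0.36 beside 0.04), and 4 of them (Jak2, Stat3, Stat5a and Stat6) had an unadjusted p under 0.05. With 7.38% of all genes called higher with TSLP and 5.9% higher with IL-3, a count of 0 of 11 is near the share of all genes. In mature cells Stat5a was higher with TSLP (0.78, edgeR, adjusted p = 0.00545) and Stat4 with IL-3 (-0.59, adjusted p = 0.0403). Of 13 other negative regulators (phosphatases, PIAS proteins, CBL ligases and others), 4 were higher in mature and 1 in immature cells of IL-3 cultures (median -0.45), near the 24.1% and 22.1% of all genes or below, with Ptprc, the phosphatase CD45, at -1.63 (edgeR, adjusted p = 4.82e-06) and the ubiquitin ligase gene Cbl at 1.34 (adjusted p = 0.00206). In TSLP cultures 3 were higher in mature cells (median -0.31), in immature cells 2 were higher with TSLP (Ptpn6 and Ptprc, median 0.01) and in mature cells 1 was (Ptpn6, median 0.01). Without TSLP mature replicate 1, 1 JAK or STAT gene was higher with TSLP in immature cells, and 3 rather than 1 of the other negative regulators were higher in immature cells of IL-3 cultures. Of those regulators, 5 rather than 4 were higher in mature cells of IL-3 cultures and 2 rather than 3 in mature cells of TSLP cultures. Between the cytokines, 3 rather than 2 were higher with TSLP in immature cells, and in mature cells 1 was higher with each.

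A list of 8 partner genes of the ligases that SOCS boxes recruit was examined as well. In IL-3 cultures only Cul2 of the 8 passed with stage, higher in immature cells (0.87, edgeR, adjusted p = 0.00903, list median 0.15 beside -0.06). There 22.1% of all genes were higher in immature cells. In TSLP cultures 2 of the 8 passed, Cul2 and Cul5, also higher in immature cells (0.85 and 0.53, edgeR, adjusted p = 0.0124 and 0.0396, median 0.63 beside -0.03). There the share of all genes was 12.2%. None passed between the cytokines in immature cells by edgeR (median -0.35, with 3 at an unadjusted p under 0.05 and 1, Eloc, called by DESeq2), and in mature cells 5 were lower with TSLP and 1 higher (median -0.74 beside 0.09), with Elob, the gene of the adaptor Elongin B, at 28.91 and 111.3 CPM (-1.93, edgeR, adjusted p = 0.00995) and Rbx1, the gene of a RING subunit, at 125.3 and 317.5 CPM (-1.34, adjusted p = 0.0126). Cul5 was also among the 5 (-0.58, edgeR, adjusted p = 0.0288). The 1 higher with TSLP was Ube2f, at 51.78 and 30.29 CPM (0.76, edgeR, adjusted p = 0.0248). Without TSLP mature replicate 1 the counts of this list became 4 higher in immature cells of TSLP cultures, 2 lower with TSLP in immature cells, and 5 lower and none higher with TSLP in mature cells. Of 26 other genes with a SOCS box, 12 were tested. Asb2, which encodes a substrate receptor of such ligases, led them, at 2.997 CPM in immature and 112.6 in mature cells with IL-3, and at 71.07 and 195.8 CPM with TSLP, an order of groups that differed from that of Cish only in the place of the 2 middle groups. Its log2 fold changes were -5.24 for stage with IL-3 (edgeR, adjusted p = 2.48e-10), -1.46 for stage with TSLP (adjusted p = 8.14e-06) and 4.58 for TSLP against IL-3 in immature cells (adjusted p = 5.17e-09). In all, 5 of the 12 were higher in mature and 1 in immature cells of IL-3 cultures, 3 were higher in mature cells of TSLP cultures, and 3 were higher with TSLP at each stage (medians -0.64, -0.34, 0.36 in immature and 0.42 in mature cells). Without TSLP mature replicate 1, 2 rather than 3 were higher in mature cells of TSLP cultures. Between the cytokines, 4 rather than 3 were then higher with TSLP in immature cells, and 1 was higher with IL-3 in mature cells.

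Other known targets of STAT5 were mostly higher with TSLP than with IL-3 in immature cells. Of 10 such genes tested (of 11 listed), 8 passed in that direction and none in the other (median 1.34 beside 0.04), with Lif, an IL-6 family cytokine, at 118.7 and 1.279 CPM (6.61, edgeR, adjusted p = 5.17e-09), the kinase gene Pim2 at 49.07 and 7.564 CPM (2.67, adjusted p = 3.95e-07) and Osm, the cytokine oncostatin M, at 526.3 and 154.3 CPM (1.77, adjusted p = 3.71e-05). With stage, 7 were higher in mature and 1, Myc, in immature cells of IL-3 cultures (median -1.76), and 5 were higher in mature cells of TSLP cultures (median -0.56). In mature cells Lif, Myc and Pim2 were higher with TSLP (2.52, 1.79 and 1.46, edgeR, adjusted p = 9.44e-06, 0.00103 and 7.17e-05) and Pim1 with IL-3 (-0.72, adjusted p = 0.0179, list median 0.33). The stage effect differed between the cultures for 5 of the 10, namely Lif, Osm, Pim1, Ccnd2 and Pim2, by 1.21 to 4.09 on the log2 scale, in the same direction as for the 4 SOCS members. Without TSLP mature replicate 1, all 11 listed genes were tested. Of these, 8 were higher in mature cells of IL-3 cultures, and in TSLP cultures 6 were higher in mature and 1 in immature cells.

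**Figure D4:**
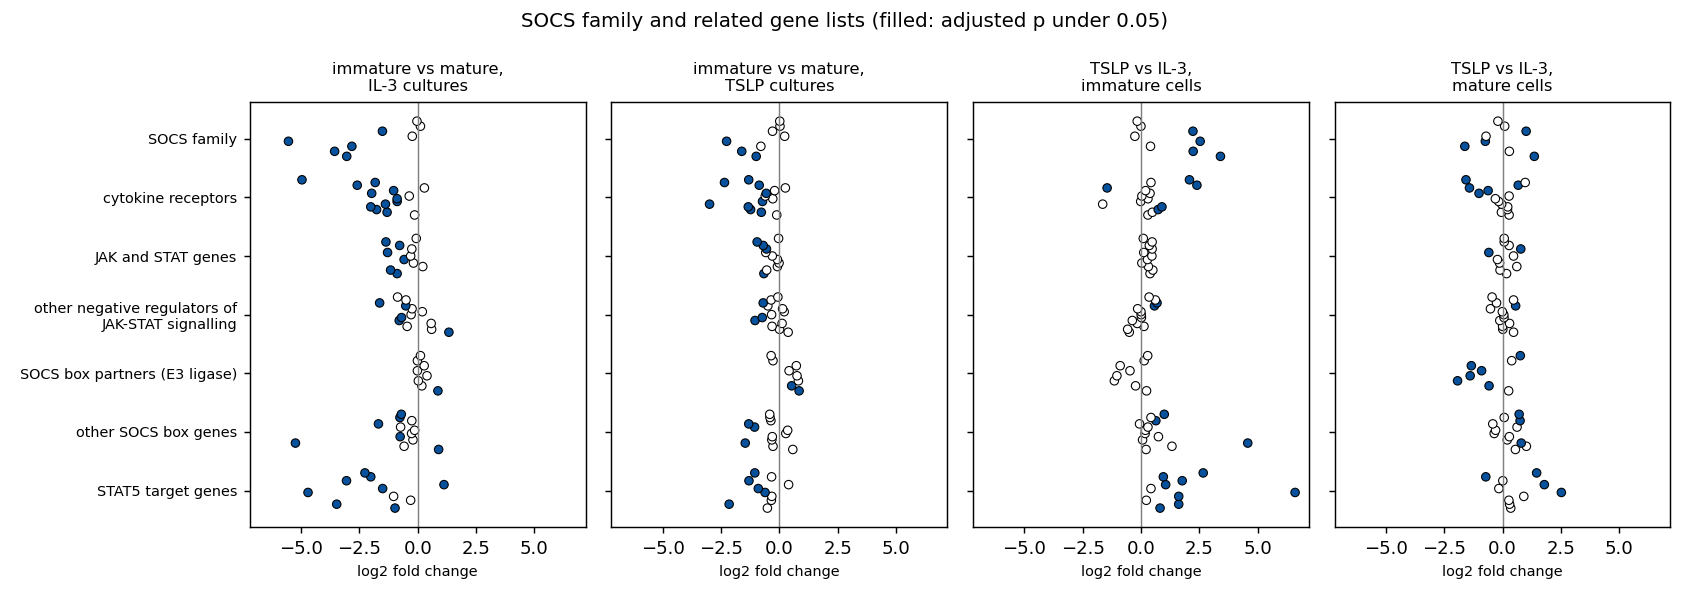
Log2 fold changes of each tested gene of the SOCS family and of 6 related lists (rows) in the 4 comparisons (panels), with filled points where the edgeR adjusted p was under 0.05. With TSLP against IL-3 in immature cells, 4 SOCS members and 8 STAT5 targets passed to the right of 0.

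The genes whose levels ran most closely with each member were described by Pearson's r of log2 CPM over the 12 libraries, among 7549 genes of at least 10 CPM. The 12 points share 4 groups, so r mostly records the order of group means. For Cish these were Nampt (0.987), Pim2 (0.987) and Pilrb1 (0.985), and Nampt, for example, had means of 21.9 and 79.7 CPM in immature and mature cells with IL-3 and of 124.6 and 186.9 CPM with TSLP. For Socs1 they were Cd300lf (0.989), Nfil3 (0.989) and Oit3 (0.987). For Socs3 they were C3ar1 (0.997), the gene of the C3a anaphylatoxin receptor, Cxcr2 (0.997), a chemokine receptor gene, and Nxpe4 (0.994), and C3ar1 had means of 44.51 and 530.6 CPM with IL-3 and of 130.3 and 410.6 CPM with TSLP. For the members with no call r was lower, at 0.926 for Socs4 with Zbtb38, 0.914 for Socs7 with Ubn2 and 0.762 for Socs6 with Ppp2r3d. Among the members themselves r was 0.959 between Socs1 and Socs3, 0.930 between Cish and Socs5, 0.896 between Cish and Socs1, 0.826 between Socs2 and Socs3, 0.810 between Cish and Socs3 and 0.459 between Cish and Socs2.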

How the data were processed

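Total RNA of sorted BMBAs was extracted with a NucleoSpin kit, converted to cDNA on oligo-dT beads and sequenced on an Ion Proton. Per the study's methods, the authors trimmed reads with cutadapt, mapped them to reference RNA of GRCm38 with Bowtie2 and counted reads per gene. The submitters' processing notes name GRCm39 and mm10. The deposited values are whole-number counts per gene symbol, 1 column per library, not normalised. There were no molecular identifiers, so PCR copies were counted as reads, and the fold intervals from pooled counts cover counting error only. Reads of genes that share sequence may have been assigned to either. The table held 1 unnamed row equal to the sum of the others (50% of each column), which entered neither the library sizes nor any test. No column was left unmapped.

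Genes passing filterByExpr (minimum count 10, total 15) were fitted in 1 model of 4 groups with edgeR 4.0.16 in R 4.3.3 (TMM, glmQLFit, glmQLFTest). The study used TCC, which was not at hand here. P-values were adjusted by Benjamini and Hochberg over all genes tested, and calls were made at 0.05. Fold changes with exact binomial intervals came from pooled counts over effective library sizes, and CPM used the same sizes. Correlations used log2 CPM with a prior count of 2. The script was checked on simulated counts. Coordinates, exon overlap, transcript lengths and shared 50-base stretches came from GENCODE M21 on GRCm38, and promoters from RefSeq on GRCm38.p6. Alternatives were DESeq2 size factors, DESeq2 1.42.0, no filter, a filter of 10 CPM in 3 libraries, Rn45s left out, the replicate number as a block, only the 6 libraries compared, and each library left out.

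All 8 members are named. Of each pathway list, examples are mainly called genes of at least 10 CPM on average with the largest differences. Other listed genes, such as Crlf2 and Csf2rb, were named after their values were seen. The members and lists were chosen with earlier results of these data known.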

Additional observations from a re-analysis of the deposited data

Results flagged for a closer look

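The stage effect, immature against mature, differed between IL-3 and TSLP cultures for 4 of the 8 members by the interaction test of the edgeR fit with Benjamini-Hochberg adjustment. The TSLP minus IL-3 difference of the log2 fold changes was 3.29 for Socs3 (adjusted p = 4.49e-06), 2.05 for Cish (adjusted p = 0.00166), 1.95 for Socs1 (adjusted p = 0.00329) and 2.03 for Socs2 (adjusted p = 0.0343). Over the alternatives that could be fitted it ranged from 3.22 to 3.44 for Socs3, 1.88 to 2.33 for Cish, 1.72 to 2.27 for Socs1 and 1.63 to 2.49 for Socs2, and in all 18 of them the first 3 genes passed the threshold, while Socs2 passed in 10. These alternatives include leaving out each of the 12 libraries in turn.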

How the results depend on the processing

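The number of members called in each of the 5 comparisons stayed within 1.5 times its value under every alternative, and no called member changed direction. Of 746 values of single members under the alternatives, 717 stayed on their side of the threshold, 26 lost it and 3 gained it. Socs5 between the mature groups lost its call in 17 of 18 alternatives (log2 fold change 0.66 to 1.21, edgeR or DESeq2 adjusted p = 0.0551 to 0.249) and kept it without TSLP mature replicate 1. Socs4 between the mature groups gained one with no filter (-0.70, adjusted p = 0.031), without IL-3 immature replicate 1 (-0.77, adjusted p = 0.0211) and without TSLP mature replicate 2 (-0.97, adjusted p = 0.0417). The cause was not tested. Same-numbered libraries deviated together with r of -0.077 to 0.388. It was above 0.1 in 2 of 3 pairs between TSLP mature and each other group, and in all 3 pairs of no 2 groups. Whether same-numbered libraries share a culture or batch is not given in the sources used here, and these few values cannot decide it. The model of 4 groups treated them as unpaired. With the replicate block, the members called were 5 in IL-3 and 3 in TSLP stage comparisons, 4 between immature groups, 3 between mature groups (Socs5 at adjusted p = 0.0665) and 4 for the interaction. Counts of all genes called moved more, from 2634 to 1714 between mature groups when only the 6 libraries compared were fitted. Leaving out 1 library gave 1658 to 2968 there, 588 to 2243 between immature groups (1443 with all), 1774 to 3456 for stage with TSLP (2731 with all) and 240 to 723 for the interaction (455 with all), with the highest of each without TSLP mature replicate 1. Low counts limit Socs2 and Socs5, and a filter of 10 CPM left Socs5 untested.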
